A study of Rattus norvegicus with 12 samples.

Results

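The genes described here are 34 genes of the contractile programme of vascular smooth muscle, read in rings of rat aorta after 2 days of culture in a gel. Their list was drawn up with earlier results of these data known, so shares of them set against all genes are descriptive only. The genes were found by symbol, and each was read from a single probe set, the one with the highest mean level on the 12 arrays. Of the 34, 31 were found in the array's gene annotation among 14324 genes in all. Acta2, Synpo2 and Itga8 were not matched and are not analysed here. Each of the 31 had 1 usable probe set, except Prkg1, which had 2.

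Smooth muscle contracts when calcium enters the cell, calmodulin activates myosin light chain kinase, and phosphorylated myosin pulls on actin filaments that carry tropomyosin, caldesmon and calponin. The filaments are held by dense bodies and by intermediate filaments, and potassium channels and cyclic GMP signalling relax the cell. Serum response factor (Srf) and its coactivator myocardin (Myocd) switch most of these genes on through a DNA element named the CArG box. Smooth muscle cells of a cultured or injured vessel are known to lower this programme as they become migratory and secretory.

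The rings came from male Fisher 344 rats aged 1 to 2 months, and all were grown in serum-free medium. Collagen control rings lay in collagen gel without the cytokine, and collagen TNF rings in collagen gel with 10 ng/ml recombinant rat TNF-alpha, an inflammatory cytokine. Fibrin control rings lay in fibrin gel without it, and fibrin TNF rings in fibrin gel with the same dose. The gel was taken from the sample titles, and the source names and treatment labels name the same one. The tissue label, by contrast, names collagen for all 12 samples, the fibrin ones included. Each group had 3 arrays, and 1 sample combined 4 to 6 ring cultures. The labels call the replicates biological but name no animals, so a p-value here covers the spread among these samples only, and that spread may be in part technical. A ring holds the whole vessel wall with its adventitia. A lower level can therefore mean fewer smooth muscle cells or less RNA of the gene per cell, and these cannot be told apart in such samples.

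Levels below are log2 values as deposited, differences are log2 differences with the standard error of the limma fit (SE), and a gene is called where its Benjamini-Hochberg adjusted p over all genes is under 0.05. None of the 31 genes lay in the lowest 33.3% of genes by mean level, against 12 of 16 striated muscle markers, 1 of 8 endothelial markers, 0 of 12 fibroblast markers and 0 of 12 macrophage markers. The defining smooth muscle markers Myh11, Tagln, Cnn1, Smtn and Lmod1 were thus all above that range. Arrays numbered 2 ran high for these genes: replicate 2 was the highest of its group for 20 of 31 genes in collagen control, 16 in collagen TNF, 27 in fibrin control and 19 in fibrin TNF. Over all genes those shares were 32.4%, 29.1%, 33.5% and 33.3%. The members' mean deviation of replicate 2 from its group mean was 0.09, 0.04, 0.14 and 0.09 in the same order. Fits with the replicate number as a block inside each gel are given where they change a call. A block over all groups, which pairs the gels too, changed more calls. With it Kcnma1 (adjusted p = 0.00514), Smtn (0.0251) and Myocd (0.0321) were called lower in fibrin between the gels with TNF. Between the gels without TNF, Synm (0.012) was called lower and Pln (0.0035) higher in fibrin. The difference of TNF effects was also called for Des (0.0371) and Myl9 (0.0377).

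The contractile genes did not move as 1 block. In collagen, TNF lowered 8 of the 31 genes (25.8%, against 3.1% of all genes), among them Tagln, Lmod1, Des and Kcnma1, and raised 0 (against 3.27%). Untreated fibrin stood lower than untreated collagen for 8 genes (25.8%, against 5.19%) and higher for 0 (against 5.35%). In fibrin, TNF lowered only Aoc3 among the 31 (3.23%, against 1.47% of all genes). In either direction that is 3.23% against 3.13%, near the background. In all, 10 genes were called in at least 1 of the 5 comparisons of the design (32.3%, against 16.3% of all genes) and 21 in none, including the transcription factors Srf and Myocd and the contractile genes Cnn1, Actg2 and Mylk. Of those 21 genes, 15 were called in these comparisons under no alternative setting either. The group of highest mean was collagen control for 20 genes, and the group of lowest mean was fibrin TNF for 18. For 12 genes (38.7%) all 3 collagen control arrays lay above the other 9 arrays, a pattern counted after the values were seen, which 6.63% of all genes show. The opposite corner, all 3 fibrin TNF arrays below the other 9, held 1 member, Aoc3 (3.23%, against 3.8% of all genes).

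**Figure D1:**
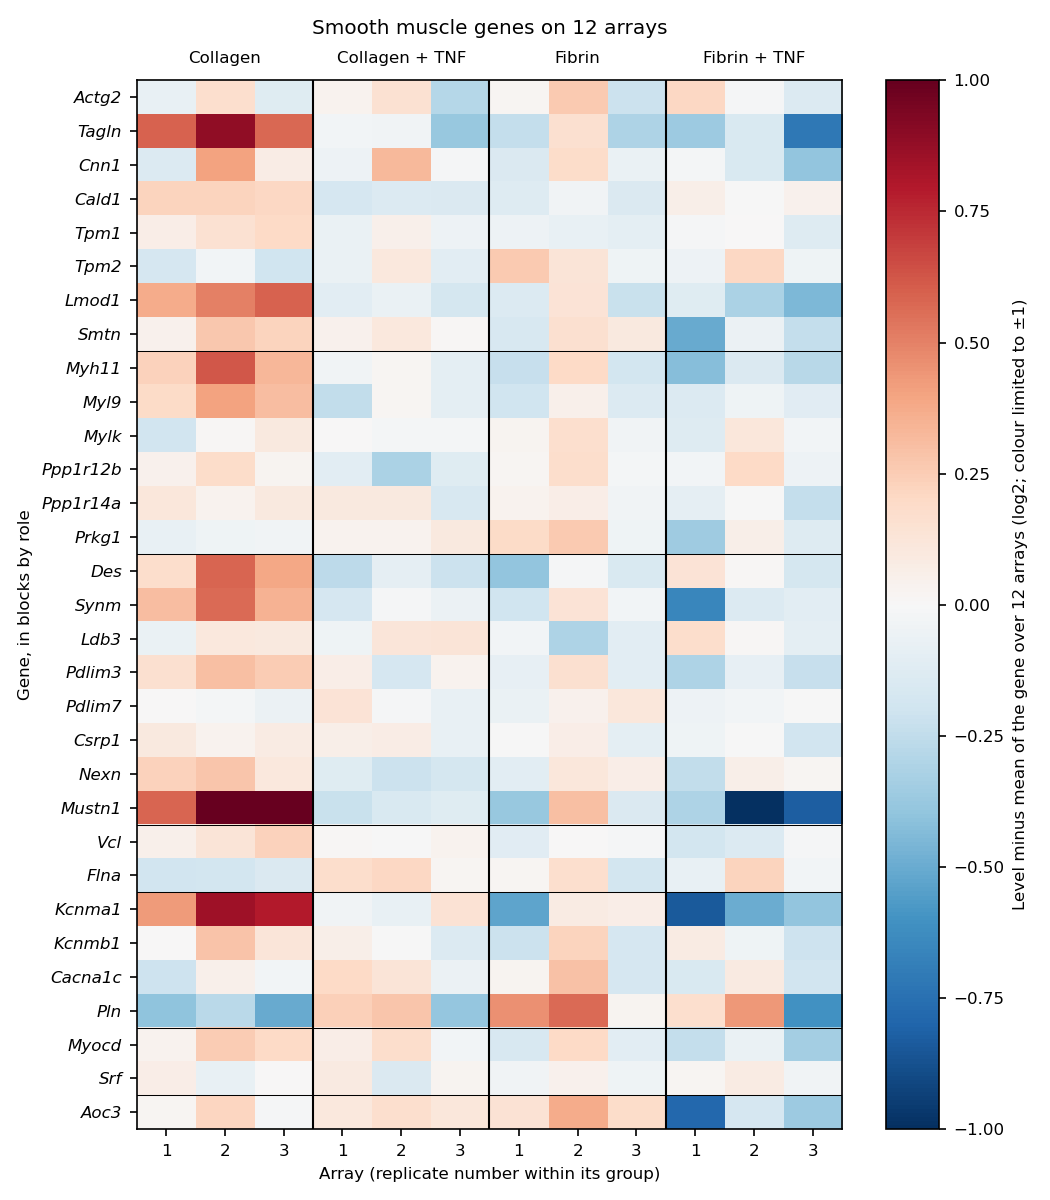
Level of each of the 31 genes on each of the 12 arrays, as the difference (log2) from that gene's mean over all arrays, with genes in blocks by role and arrays in groups by gel and TNF. Tagln, Lmod1, Myh11, Des, Mustn1 and Kcnma1 are highest on the collagen control arrays, while Srf, Mylk and Pdlim7 vary little between groups.

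Of the thin filament and its regulators, 3 of 8 measured genes fell with TNF in collagen (against 3.1% of all genes called lower) and 3 were lower in untreated fibrin than in untreated collagen (against 5.19%). Tagln encodes transgelin, an actin-binding protein of differentiated smooth muscle. Its level was 8.85, 9.15 and 8.83 on the collagen control arrays, 8.23, 8.23 and 7.88 with TNF in collagen, 8.02, 8.42 and 7.95 in fibrin, and 7.90, 8.11 and 7.55 with TNF in fibrin. All 3 collagen control arrays lay above the other 9, and the other groups overlapped. Tagln fell by 0.83 ± 0.16 SE with TNF in collagen (adjusted p = 0.00758), a 1.78-fold change. In untreated fibrin it was lower than in untreated collagen (-0.81 ± 0.16, adjusted p = 0.00569). These comparisons share the 3 collagen control arrays, here and for every gene below. The TNF difference in fibrin was -0.28 (95% confidence interval -0.63 to 0.07, adjusted p = 0.450).

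Lmod1 encodes leiomodin 1, which nucleates actin filaments in smooth muscle. Its level was 7.27, 7.41 and 7.49 in collagen control, 6.80, 6.84 and 6.73 in collagen TNF, 6.76, 7.04 and 6.68 in fibrin control, and 6.78, 6.58 and 6.45 in fibrin TNF. Again every collagen control array was above every other array. Lmod1 fell by 0.60 ± 0.11 with TNF in collagen (adjusted p = 0.00393). Without TNF the fibrin minus collagen difference was -0.56 ± 0.11 (adjusted p = 0.00402), and the TNF difference in fibrin was -0.22 (interval -0.45 to 0.01, adjusted p = 0.354).

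Cald1 encodes caldesmon, which binds actin and restrains myosin. It had the smallest spread within groups of the 31 genes (pooled SD 0.04). Its level was 10.83, 10.83 and 10.82 in collagen control, 10.44, 10.47 and 10.46 in collagen TNF, 10.48, 10.57 and 10.46 in fibrin control, and 10.67, 10.60 and 10.65 in fibrin TNF. With TNF, Cald1 was thus lower in collagen and higher in fibrin, and within each gel the arrays with and without TNF did not overlap. The TNF effect was -0.37 ± 0.06 in collagen (adjusted p = 0.00184) and 0.14 ± 0.06 in fibrin (adjusted p = 0.279). Their difference, 0.50 ± 0.08 (adjusted p = 0.0102), made Cald1 the only member called for a TNF effect that differs between the gels (1 of 31, 3.23%, higher, against 0.37% of all genes, and 0 lower, against 0.866%; either direction 1.24%). With replicate number as a block inside each gel the members called were 2, Cald1 and Aoc3. Without TNF, Cald1 was lower in fibrin (-0.32 ± 0.06, adjusted p = 0.00284). With TNF in both gels the difference was 0.18 ± 0.06 (adjusted p = 0.0801). The calls of Tagln, Lmod1 and Cald1 for TNF in collagen and for untreated fibrin against collagen held under every alternative run, as did that of the Cald1 difference of effects.

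The other thin filament genes passed no test in the 5 comparisons of the design. Cnn1, which encodes the smooth muscle calponin, had means of 6.79 ± 0.27 (SD, n = 3) in collagen control, 6.77 ± 0.20 in collagen TNF, 6.67 ± 0.17 in fibrin control and 6.49 ± 0.19 in fibrin TNF. Its TNF difference in collagen was -0.02 (interval -0.35 to 0.30). Actg2, the gamma actin of smooth muscle, stayed between group means of 8.14 and 8.20, with a TNF difference of -0.03 in collagen (interval -0.33 to 0.28). Smtn (smoothelin) was lowest in fibrin TNF, at 7.96, 8.40 and 8.23 against 8.30 to 8.63 in fibrin control, and the difference of -0.30 did not pass (adjusted p = 0.222). The tropomyosin genes Tpm1 and Tpm2 had TNF differences in collagen of -0.16 and 0.11. Actins and tropomyosins belong to families of similar sequence, so their probe sets may also read related transcripts.

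Of the myosin genes and their regulators, 1 of 6 fell with TNF in collagen (against 3.1% of all genes) and 2 were lower in untreated fibrin than in untreated collagen (against 5.19%). Myl9, the regulatory light chain that the kinase phosphorylates, had levels of 7.75, 7.96 and 7.86 in collagen control, 7.31, 7.57 and 7.45 in collagen TNF, 7.35, 7.61 and 7.42 in fibrin control, and 7.42, 7.51 and 7.44 in fibrin TNF. The collagen control arrays lay above all others. Myl9 fell by 0.41 ± 0.09 with TNF in collagen (adjusted p = 0.0151), and its fibrin minus collagen difference without TNF was -0.40 ± 0.09 (adjusted p = 0.0124). The first of these calls was lost without collagen control replicate 2 (-0.36, adjusted p = 0.0703) or 3 (-0.41, 0.0546) or collagen TNF replicate 1 (-0.34, 0.0709). The second was lost without collagen control replicate 2 (-0.35, 0.0589) or fibrin control replicate 1 (-0.34, 0.0576). In fibrin the TNF difference of Myl9 was -0.00 (interval -0.20 to 0.19).

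Myh11, the smooth muscle myosin heavy chain and a defining marker of the cell type, had levels of 10.62, 11.02 and 10.73 in collagen control, 10.36, 10.41 and 10.30 in collagen TNF, 10.17, 10.60 and 10.21 in fibrin control, and 9.97, 10.25 and 10.12 in fibrin TNF. The lowest collagen control array was just above the highest of the others. For Myh11 the TNF difference in collagen was -0.43 ± 0.125 (adjusted p = 0.0624), and with replicate number as a block inside each gel the adjusted p was 0.0187. It was also called without collagen control replicate 1 (-0.52, adjusted p = 0.0494) and without fibrin control replicate 2 (-0.43, 0.0307). In fibrin without TNF, Myh11 was lower than in collagen without TNF (-0.46 ± 0.125, adjusted p = 0.0324). That call was lost without collagen control replicate 2 (-0.35, 0.132) or 3 (-0.49, 0.0612) and without fibrin control replicate 1 (-0.38, 0.124) or 3 (-0.41, 0.107), and the adjusted p was 0.0560 after median centring and 0.0869 when only these 2 groups were fitted.

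The enzymes that set myosin phosphorylation passed no test. Mylk, the light chain kinase, had group means between 8.69 and 8.77 and a TNF difference in collagen of 0.02 (interval -0.17 to 0.21). Ppp1r12b, a targeting subunit of myosin phosphatase, was lower on every collagen TNF array (5.97 to 6.18) than on every collagen control array (6.32 to 6.47), but the difference of -0.27 ± 0.09 did not pass (adjusted p = 0.119). Ppp1r14a, an inhibitor of that phosphatase, differed by -0.07 with TNF in collagen and by -0.13 in fibrin. Prkg1, the cyclic GMP-dependent kinase that relaxes the cell, differed by 0.11 in collagen and by -0.28 in fibrin (adjusted p = 0.195).

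**Figure D2:**
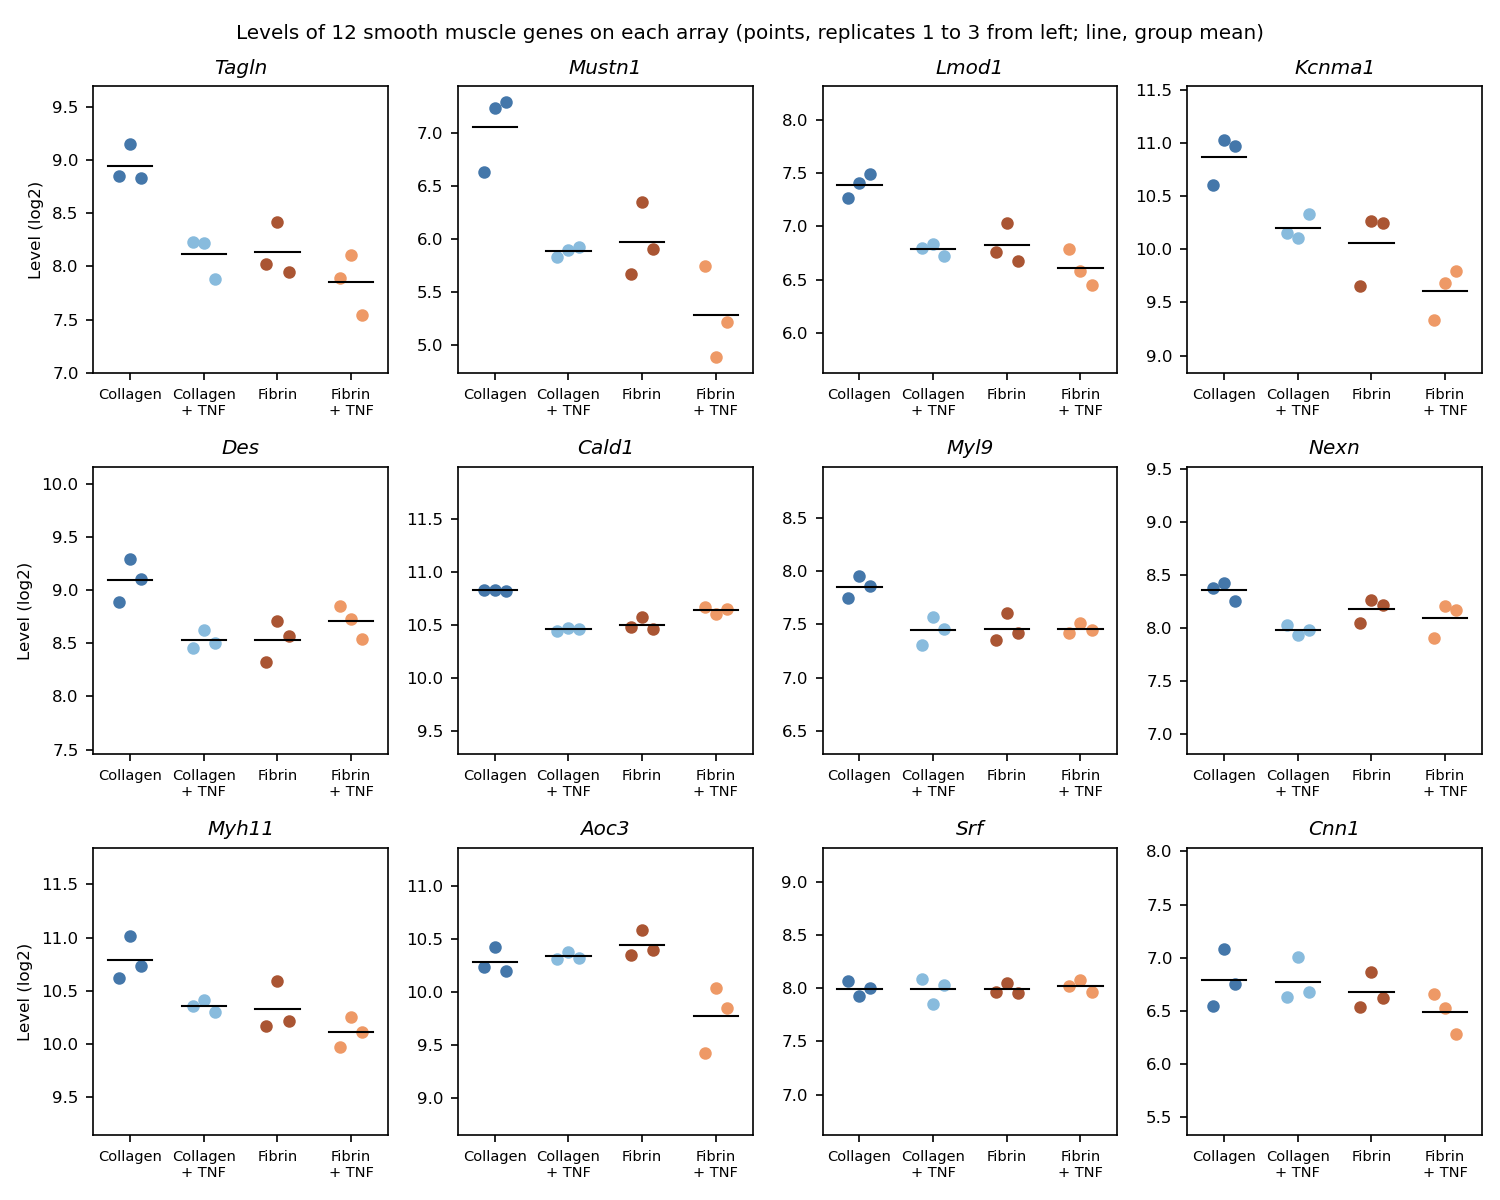
Log2 level of 12 genes on each array, with 4 groups on the x axis, 1 point per array and a line at the group mean; every panel spans the same log2 range around a different level. The collagen control points of Tagln, Mustn1, Lmod1, Kcnma1, Des, Cald1, Myl9 and Myh11 lie above all others, the fibrin TNF points of Aoc3 lie below all others, and the groups of Srf and Cnn1 overlap.

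Among genes of intermediate filaments, dense bodies and actin scaffolds, 3 of 8 fell with TNF in collagen (against 3.1% of all genes) and 2 were lower in untreated fibrin (against 5.19%). Both counts include Mustn1, which was placed in this block although it encodes a nuclear protein. Des encodes desmin, the intermediate filament protein of muscle. Its level was 8.89, 9.30 and 9.10 in collagen control, 8.46, 8.63 and 8.51 in collagen TNF, 8.32, 8.71 and 8.57 in fibrin control, and 8.85, 8.73 and 8.54 in fibrin TNF. Only the collagen control arrays stood apart. Des fell by 0.57 ± 0.12 with TNF in collagen (adjusted p = 0.0139), a call lost without collagen control replicate 2 (-0.47, adjusted p = 0.0635) or collagen TNF replicate 1 (-0.53, 0.0584). Without TNF, Des was lower in fibrin than in collagen (-0.57 ± 0.12, adjusted p = 0.00927). With TNF in fibrin its difference was 0.18 (interval -0.09 to 0.44), and the difference between its TNF effects, 0.74 ± 0.17, had an adjusted p of 0.0614 (0.0347 with 0.85 without collagen control replicate 1).

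Mustn1, a small nuclear protein of the musculoskeletal system, had the largest differences of the 31 genes with TNF in either gel and between the gels, and also a wide spread. Its level was 6.63, 7.23 and 7.28 in collagen control, 5.83, 5.90 and 5.93 in collagen TNF, 5.67, 6.35 and 5.91 in fibrin control, and 5.74, 4.89 and 5.22 in fibrin TNF. Mustn1 fell by 1.16 ± 0.22 with TNF in collagen (adjusted p = 0.00691), a 2.24-fold change, and was lower in untreated fibrin (-1.07 ± 0.22, adjusted p = 0.00760). Both calls held under every alternative run. In fibrin the TNF difference was -0.69 (interval -1.17 to -0.21), which did not pass over all genes (adjusted p = 0.135). With TNF in both gels the fibrin minus collagen difference was -0.60 (adjusted p = 0.133), and -0.83 without fibrin TNF replicate 1 (adjusted p = 0.0468).

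Nexn (nexilin, which binds actin filaments) was at 8.38, 8.43 and 8.26 in collagen control and at 8.03, 7.94 and 7.98 in collagen TNF. It fell by 0.37 ± 0.09 (adjusted p = 0.0287). That call was lost without collagen control replicate 1 (adjusted p = 0.0797) or 2 (0.112) or collagen TNF replicate 1 (0.0622), 2 (0.106) or 3 (0.0828), and with all probe sets tested (0.0503). Fibrin control arrays of Nexn (8.04, 8.27 and 8.22) lay above every collagen TNF array and overlapped collagen control, and the matrix difference of -0.18 did not pass. Synm encodes synemin, an intermediate filament protein that joins desmin to adhesion sites. Its level was 7.58, 7.83 and 7.61 in collagen control, 7.09, 7.25 and 7.20 in collagen TNF, 7.07, 7.40 and 7.24 in fibrin control, and 6.61, 7.13 and 7.16 in fibrin TNF. The Synm differences of -0.49 with TNF in collagen and -0.44 between the untreated gels had adjusted p values of 0.0552 and 0.0625, and the first was 0.0112 with replicate number as a block inside each gel. Both were called without fibrin TNF replicate 1 (adjusted p = 0.0103 and 0.0122). Pdlim3, Pdlim7, Csrp1 and Ldb3, LIM-domain proteins of the actin anchor, passed no test in the 5 comparisons of the design. Their TNF differences in collagen were -0.26, 0.04, -0.05 and 0.02.

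The promoter windows of the genes show where the CArG box lies close to the start site. RefSeq windows of 300 bases on GRCr8, 250 before and 50 after the annotated start, were at hand for 24 of the 31 genes (25 windows, since Cald1 has 2 starts). The 7 genes without a window were Tagln, Lmod1, Myh11, Myl9, Aoc3, Pdlim3 and Myocd. For lack of a window, none of these 7 promoters was searched for any motif, and the first named, from Tagln to Aoc3, are called genes. A CArG box was found in 2 of the 25 windows, those of Srf and Ldb3, against 1.64% of 33469 windows of the table. Neither gene was called in any comparison. A CArG box with 1 G or C in its core was in 0 of 25 windows, against 8.1% of all. The motif CATTCC (MCAT, read on both strands), which TEAD factors bind, was in the windows of 7 genes (28.0% of 25 windows, against 14.2% of all). These were Cacna1c, Cald1, Flna, Mylk, Nexn, Tpm1 and Vcl, of which only Cald1 and Nexn were called in the comparisons of the design. For Cald1 it was in 1 of its 2 windows. The NF-kB motif kappaB was in 1 window, that of Mustn1, against 4.18% of all. No 2 matches in the members' windows overlapped. A match is only a match of letters, and sites outside these windows, as in first introns, were not searched.

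The windows printed are the 2 with CArG boxes and those of Cald1 and Mustn1, called genes that carry 1 of the other motifs. They are Srf (chr9:21923826-21924125, plus strand), Ldb3 (chr16:9924630-9924929, minus strand), the first Cald1 start (chr4:64233006-64233305, plus strand) and Mustn1 (chr16:6079105-6079404, plus strand), each 5' to 3'. Capitals mark the CArG boxes of Srf, which begin at positions -81 and -61 from the start, and of Ldb3, at -52. In Cald1 they mark the MCAT motif at -195, and in Mustn1 the kappaB motif at 21.
Srf: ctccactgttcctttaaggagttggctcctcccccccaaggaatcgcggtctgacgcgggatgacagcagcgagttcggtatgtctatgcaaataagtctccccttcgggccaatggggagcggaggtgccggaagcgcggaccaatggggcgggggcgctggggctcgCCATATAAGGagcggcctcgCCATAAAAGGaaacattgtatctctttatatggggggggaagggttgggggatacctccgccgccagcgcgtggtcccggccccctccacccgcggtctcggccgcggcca
Ldb3: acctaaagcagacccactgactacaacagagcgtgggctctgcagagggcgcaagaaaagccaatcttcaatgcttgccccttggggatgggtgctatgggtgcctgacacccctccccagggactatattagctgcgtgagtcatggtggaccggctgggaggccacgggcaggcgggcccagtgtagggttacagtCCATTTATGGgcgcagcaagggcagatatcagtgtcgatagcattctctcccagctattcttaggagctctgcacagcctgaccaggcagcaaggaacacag
Cald1: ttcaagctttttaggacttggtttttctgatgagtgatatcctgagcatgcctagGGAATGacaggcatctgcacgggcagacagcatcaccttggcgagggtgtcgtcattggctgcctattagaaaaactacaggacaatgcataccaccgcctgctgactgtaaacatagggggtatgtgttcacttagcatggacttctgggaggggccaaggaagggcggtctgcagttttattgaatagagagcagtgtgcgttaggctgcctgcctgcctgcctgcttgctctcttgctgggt
Mustn1: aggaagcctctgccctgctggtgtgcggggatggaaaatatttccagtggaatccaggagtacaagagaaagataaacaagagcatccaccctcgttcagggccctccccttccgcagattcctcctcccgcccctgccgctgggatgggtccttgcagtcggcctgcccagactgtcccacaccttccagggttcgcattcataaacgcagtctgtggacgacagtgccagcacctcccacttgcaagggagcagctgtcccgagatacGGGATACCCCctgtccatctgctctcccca

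The adhesion and crosslinking genes, Vcl and Flna, were not called in the design's comparisons. Vcl encodes vinculin, which ties actin to adhesion sites. It was slightly lower on every array of the other groups (9.91 to 10.13) than in collagen control (10.15, 10.22 and 10.33), with differences of -0.12 for TNF in collagen and -0.18 for untreated fibrin. Flna, the actin crosslinker filamin A, was higher on every collagen TNF array (11.39, 11.42 and 11.24) than on every collagen control array (11.03, 11.04 and 11.07). For Flna that difference was 0.31 ± 0.10, with an adjusted p of 0.0983, and of 0.0485 with replicate number as a block inside each gel.

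Of 4 genes of membrane excitability and calcium, Kcnma1 alone was called. Kcnma1 encodes the pore of the large-conductance potassium channel, which hyperpolarizes the cell and opposes contraction. Its level was 10.61, 11.03 and 10.98 in collagen control, 10.15, 10.11 and 10.33 in collagen TNF, 9.65, 10.26 and 10.25 in fibrin control, and 9.34, 9.68 and 9.79 in fibrin TNF. The highest arrays were those of collagen control and the lowest group mean was that of fibrin TNF, which overlapped fibrin control. Kcnma1 fell by 0.68 ± 0.17 with TNF in collagen (adjusted p = 0.0332), but the call was lost without collagen control replicate 2 (adjusted p = 0.129) or 3 (0.118) or collagen TNF replicate 1 (0.104), 2 (0.116) or 3 (0.0547), and with all probe sets tested (0.0528). Between the gels without TNF the Kcnma1 difference was -0.82 ± 0.17 (adjusted p = 0.00771), a call kept under every alternative run. With TNF in fibrin the Kcnma1 difference was -0.45 ± 0.17 (adjusted p = 0.217). With replicate number as a block inside each gel that adjusted p was 0.0453, and without fibrin control replicate 1 the difference was -0.65 (0.0370). With TNF in both gels the matrix difference was -0.59 (adjusted p = 0.0519). It was called without collagen control replicate 1 (adjusted p = 0.0422) and without fibrin control replicate 1 (0.0171).

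Kcnmb1, the accessory subunit that raises the calcium sensitivity of the same channel, had a TNF difference in collagen of -0.16 (interval -0.42 to 0.10). Cacna1c, the pore of the L-type calcium channel, differed by 0.15 in collagen and by -0.13 in fibrin. Pln encodes phospholamban, which restrains the calcium pump of the sarcoplasmic reticulum, and had the widest spread within groups of the 31 genes (pooled SD 0.36). Its level was 7.15, 7.29 and 7.05 in collagen control, 7.79, 7.83 and 7.17 in collagen TNF, 8.02, 8.12 and 7.58 in fibrin control, and 7.73, 7.99 and 6.95 in fibrin TNF. Every fibrin control array was above every collagen control array, and the difference of 0.74 ± 0.24 had an adjusted p of 0.0729 (0.0226 without fibrin TNF replicate 3, an array that enters that fit only through the pooled spread).

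The transcription factors of the programme were not called in the 5 comparisons of the design. Srf ran from 7.92 to 8.07 in collagen control, 7.85 to 8.09 in collagen TNF, 7.96 to 8.05 in fibrin control and 7.97 to 8.08 in fibrin TNF. All 4 groups overlapped, and the interval of the TNF difference in collagen was -0.17 to 0.15. Myocd had levels of 7.26, 7.47 and 7.41 in collagen control, 7.28, 7.40 and 7.19 in collagen TNF, 7.06, 7.42 and 7.11 in fibrin control, and 6.98, 7.16 and 6.88 in fibrin TNF. For Myocd the fibrin TNF mean was the lowest. Its arrays lay below every collagen array and overlapped fibrin control. The difference from collagen TNF (-0.29 ± 0.11) had an adjusted p of 0.131, and of 0.0321 with the replicate block over all groups. The TNF difference of Myocd in collagen was -0.09 (interval -0.32 to 0.14).

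Aoc3 moved in another way. It encodes a copper amine oxidase of the smooth muscle cell surface, also known as vascular adhesion protein 1. Its level was 10.23, 10.42 and 10.20 in collagen control, 10.31, 10.38 and 10.32 in collagen TNF, 10.35, 10.58 and 10.39 in fibrin control, and 9.43, 10.04 and 9.85 in fibrin TNF. The fibrin TNF arrays lay below the other 9, and the other groups overlapped. Aoc3 fell by 0.67 ± 0.13 with TNF in fibrin (adjusted p = 0.0136) and differed by 0.05 in collagen (interval -0.23 to 0.33). With TNF in both gels it was lower in fibrin (-0.57 ± 0.13, adjusted p = 0.0170). The TNF call was lost without fibrin control replicate 2 (-0.60, adjusted p = 0.0699) and in a fit of the fibrin arrays alone (0.0730), and the matrix call without collagen TNF replicate 2 (0.0619) or 3 (0.0518) or when only those 2 groups were fitted (0.0531). The difference between its TNF effects was -0.72 ± 0.18 (adjusted p = 0.0866), and its adjusted p was 0.0374 with replicate number as a block inside each gel. Without fibrin TNF replicate 2 it was -0.86 (0.0218). In fibrin with TNF, 3 of 12 fibroblast, 2 of 9 pericyte and 1 of 9 adipocyte markers fell too (against 1.47% of all genes), and 0 rose (against 1.65%). The median of the adipocyte list was 0.03. Of 12 macrophage markers 1 fell and 1 rose, and 0 of 8 endothelial, 0 of 16 striated muscle and 0 of 5 Schwann cell markers were called. The part of these cell types in the Aoc3 result was not tested.

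The comparison of TNF with control asked what the cytokine did in each gel. In collagen 8 of 31 genes were called lower (25.8%, against 3.1% of all genes) and 0 higher (against 3.27%, with 6.37% in either direction). At an unadjusted p under 0.05, 14 of the 31 passed in either direction, against 18.6% of all genes. The median over the 31 was -0.12, against 0.00 over all genes. With replicate number as a block inside each gel 10 genes were lower and 1, Flna, was higher. The 8 calls became 4 without collagen control replicate 2 and 4 without collagen TNF replicate 1. In fibrin 1 gene was called lower (3.23%, against 1.47% of all genes), and 0 were higher (against 1.65%). In either direction that is 3.23% against 3.13% of all genes, near the background. At an unadjusted p under 0.05 it was 6 of 31 (19.4%, against 15.3% of all genes), and the median was -0.08 against 0.01. The count in fibrin was 2 with replicate number as a block inside each gel, 2 without fibrin control replicate 1 and 0 without fibrin control replicate 2. The TNF effects in the gels share no array. They were negative in both gels for 18 of 31 genes (58.1%, against 25.5% of all genes). In collagen alone 71% of the 31 were negative (against 49.1% of all genes), and in fibrin alone 80.6% (against 46.2%). The share in both therefore does not by itself show that the gels agree gene by gene. The sign was the same for 20 of 31 genes (64.5%, against 55.7% of all genes). The effects had a Pearson r of 0.29 across the 31 genes, against 0.375 across all genes. Genes are not independent replicates.

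**Figure D3:**
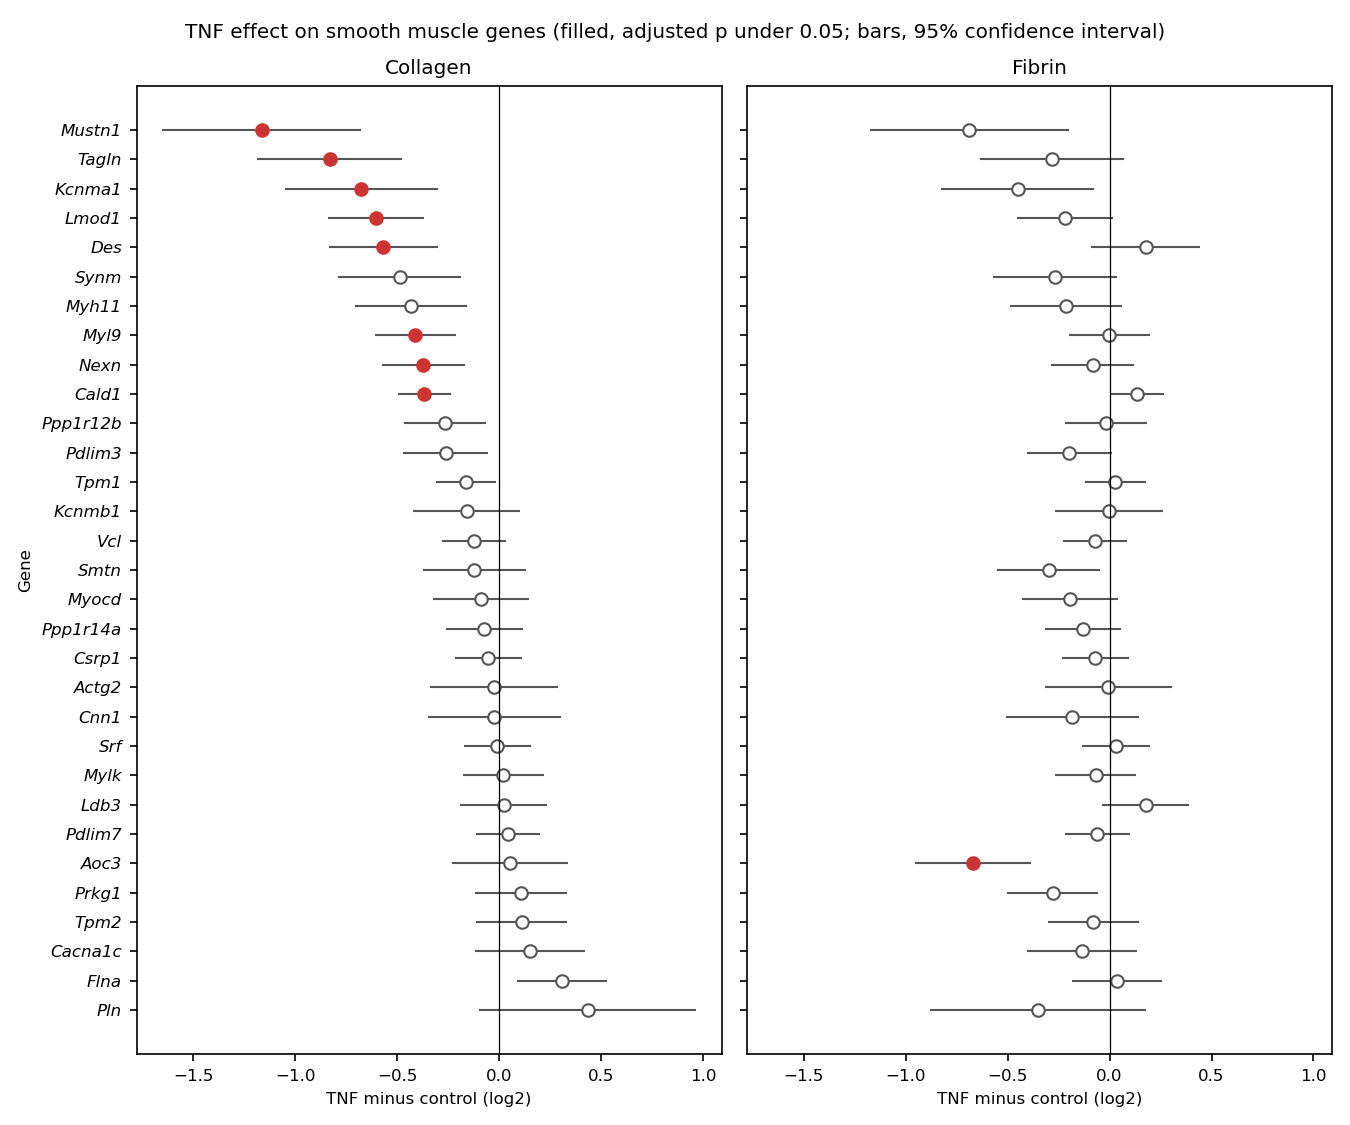
TNF minus control (log2) in collagen (left) and fibrin (right) for the 31 genes, ordered by the collagen value, with 95% confidence intervals as bars and filled points at an adjusted p under 0.05. Mustn1 (-1.16) to Cald1 (-0.37) hold the 8 called decreases in collagen, and Aoc3 (-0.67) the call in fibrin.

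Fibrin was compared with collagen to ask what the gel did. Without TNF 8 of 31 genes were called lower in fibrin (25.8%, against 5.19% of all genes) and 0 higher (against 5.35%, with 10.5% in either direction), with a median of -0.18 against -0.01. After centring each array on its median, 7 genes were lower, Pln was higher, and the median was -0.11 against 0.05 over all genes. With TNF in both gels 1 gene was lower (3.23%, against 3.64% of all genes, near the background), and 0 were higher (against 4.55%, with 8.19% in either direction), with a median of -0.10 against -0.00 (-0.06 against 0.04 after that centring). At an unadjusted p under 0.05 it was 7 of 31 (22.6%, against 22.1% of all genes). The count of adjusted calls was 0 without collagen TNF replicate 2 or 3, and 2 without collagen control replicate 1, fibrin control replicate 1, fibrin TNF replicate 1 or fibrin TNF replicate 2. Without TNF the arrays of the gels did not overlap for 12 genes that were lower in fibrin (38.7%, against 15% of all genes) and for 1 that was higher, Pln (against 14.3%).

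**Figure D4:**
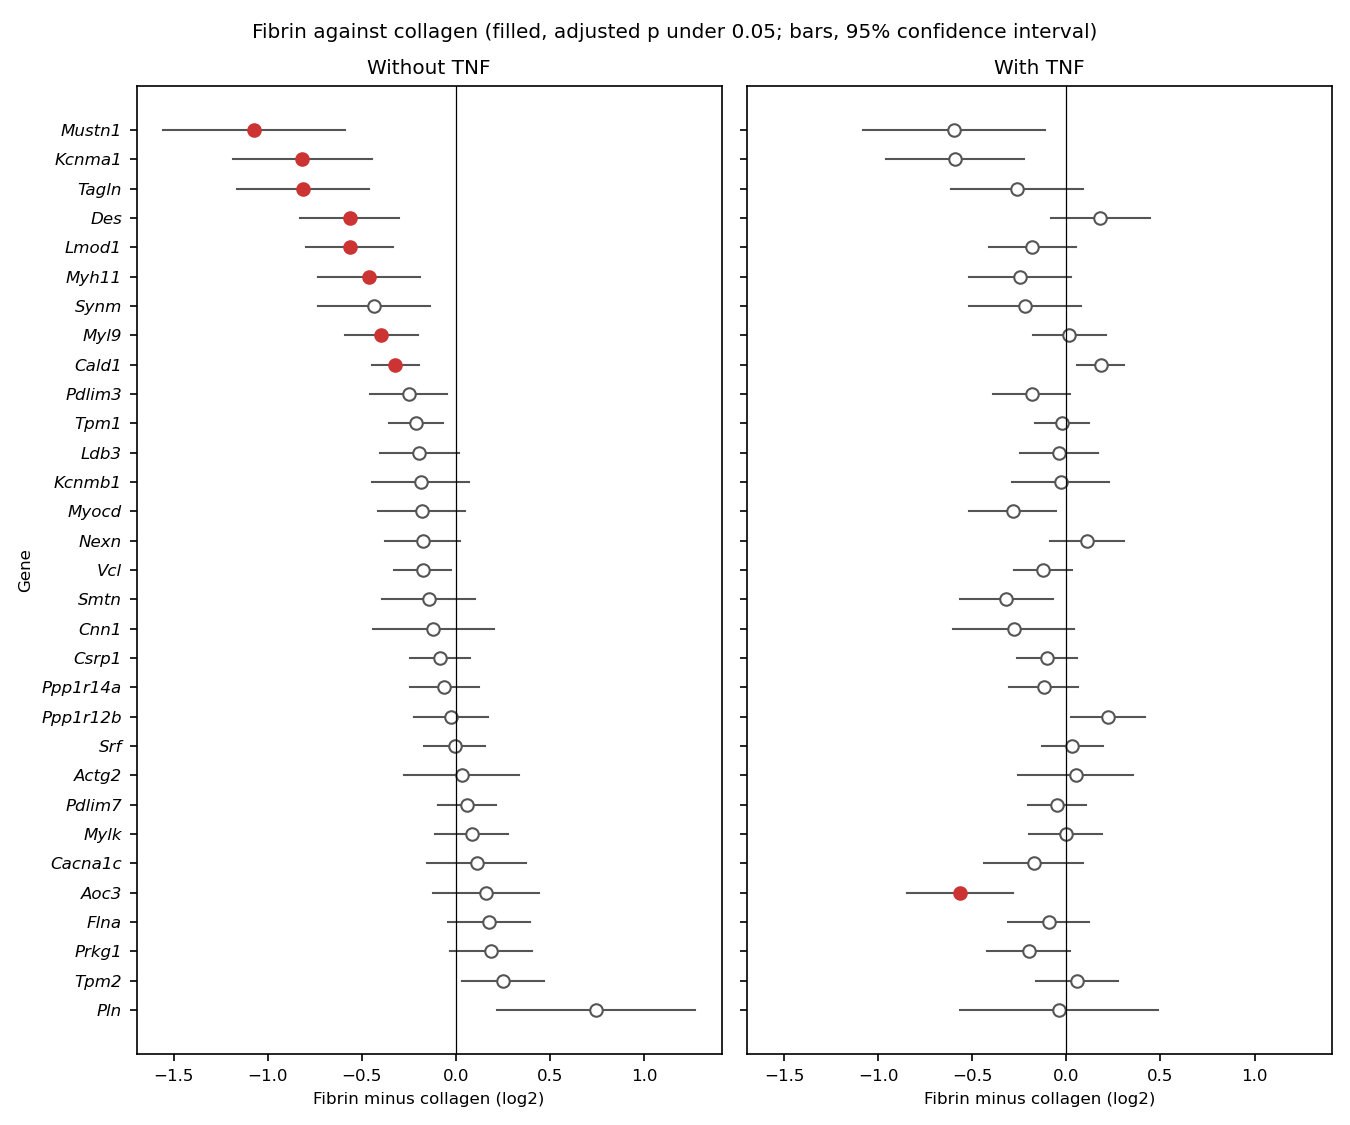
Fibrin minus collagen (log2) without TNF (left) and with TNF (right) for the 31 genes, ordered by the value without TNF, with 95% confidence intervals as bars and filled points at an adjusted p under 0.05. Mustn1 (-1.07) and Kcnma1 (-0.82) lead the 8 genes called lower without TNF, and with TNF only Aoc3 (-0.57) is called.

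A pair of further comparisons was added after the values were seen, to place the groups in order. Fibrin with TNF against collagen control, which differ in gel and cytokine, gave 14 of 31 genes lower (45.2%, against 9.96% of all genes) and 0 higher (against 10%). Mustn1 (-1.76 ± 0.22, adjusted p = 8.95e-05), Kcnma1 (-1.27 ± 0.17, 1.50e-04), Tagln (-1.09 ± 0.16, 3.19e-04) and Lmod1 (-0.78 ± 0.11, 1.62e-04) differed most. Synm (-0.71), Myh11 (-0.68), Pdlim3 (-0.45) and Myl9 (-0.40) were also called lower under every alternative run. Cald1, Smtn, Des, Vcl, Myocd and Aoc3 were called but lost the call under at least 1 alternative. The 14 calls became 8 without collagen control replicate 2 and 9 without collagen control replicate 3. Untreated fibrin against collagen with TNF gave 0 of 31 calls in limma (against 1.47% of all genes higher, 1.19% lower and 2.66% in either direction), and 2 of 31 at an unadjusted p under 0.05 (against 13.3%). The arrays of these groups did not overlap for 2 genes, higher in fibrin (6.45%, against 9.55% of all genes). Its 95% intervals were -0.33 to 0.37 for Tagln, -0.19 to 0.27 for Lmod1 and -0.26 to 0.27 for Des. For Tagln, Lmod1, Mustn1 and Kcnma1 the order of means was thus collagen control highest, collagen TNF and untreated fibrin with no called difference between them, and fibrin TNF lowest. Neither neighbour of fibrin TNF in that order was called apart from it for these genes.

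Other genes around the contractile apparatus were read from lists chosen beside the members. For these lists and the markers below, the shares over all genes were 3.27% higher and 3.1% lower with TNF in collagen. With TNF in fibrin they were 1.65% higher and 1.47% lower. Of 26 other muscle cytoskeleton and adhesion genes, 1 rose and 2 fell with TNF in collagen (median -0.03). Sgca, a sarcoglycan of the muscle membrane, fell by 0.74 ± 0.11 and the laminin receptor subunit Itga7 by 0.56 ± 0.15, while the fibronectin receptor subunit Itga5 rose by 0.30 ± 0.06. For Sgca the TNF effect differed between gels by 0.93 ± 0.16 (adjusted p = 0.0143). Of 33 genes of calcium and vasoactive signalling, 2 rose and 6 fell with TNF in collagen. Gucy1a1, a subunit of the nitric oxide receptor that makes cyclic GMP, fell by 1.11 ± 0.15, and Rgs2, which limits signals of contracting agonists, rose by 1.57 ± 0.24. In fibrin 1 rose and 2 fell, among them the angiotensin receptor gene Agtr1a (-0.77 ± 0.18).

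Of 16 transcriptional regulators of the programme, 1 rose and 1 fell with TNF in collagen, and 0 of 16 were called in fibrin. Prrx1 rose by 0.33 and Tcf21 fell by 0.47 in collagen. Between the gels without TNF, 2 of the 16 were higher in fibrin (against 5.35% of all genes) and 1 was lower (against 5.19%). Those higher were Klf4, a repressor of contractile genes (0.55 ± 0.15, adjusted p = 0.0380), and Prrx1 (0.29 ± 0.07, 0.0194). Tcf21 was lower (-0.56 ± 0.12, 0.01). Of 15 genes of the synthetic state of smooth muscle, 2 rose and 0 fell with TNF in collagen, and 2 rose and 2 fell in fibrin. Of 13 immediate early and cytoplasmic actin genes, which Srf also controls, 3 rose and 0 fell with TNF in collagen, led by Nr4a1 (1.60 ± 0.41).

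Markers of other cell types moved with some of these results. Over all genes, 5.35% were called higher and 5.19% lower in untreated fibrin than in untreated collagen. With TNF in both gels those shares were 4.55% and 3.64%. With TNF in collagen, 2 of 12 fibroblast markers rose and 4 fell, 3 of 12 macrophage markers rose and 0 fell, and 0 of 8 endothelial and 0 of 16 striated muscle markers were called. The mean level of the fibroblast list was 10.73 to 10.88 on collagen control arrays, 10.54 to 10.66 in collagen TNF, 10.57 to 10.64 in fibrin control and 10.30 to 10.39 in fibrin TNF. The mean level of the 31 contractile genes was 8.41 to 8.58, 8.25 to 8.34, 8.25 to 8.46 and 8.11 to 8.27 in the same order. Other lists had other orders. The pericyte list was at 8.61 to 8.78, 8.78 to 8.82, 8.70 to 8.87 and 8.41 to 8.60. The macrophage list was at 9.35 to 9.59, 9.34 to 9.71, 8.77 to 9.04 and 8.62 to 8.86. The endothelial list was at 8.60 to 8.86, 8.71 to 8.77, 8.41 to 8.75 and 8.45 to 8.71. Of 12 macrophage markers 7 were lower in untreated fibrin than in untreated collagen, and 0 were higher. Of the fibroblast markers, 4 were lower in untreated fibrin, led by Mfap5 (-1.48 ± 0.08) and Cygb (-1.28 ± 0.13), and 1, Fbln1, was higher (1.08 ± 0.16). Of 9 pericyte markers, a cell type that shares genes with smooth muscle, 1 fell with TNF in collagen and 2 in fibrin. Pdgfrb alone was lower in untreated fibrin (-0.42 ± 0.11), and 0 of the 9 were called higher in these comparisons. The median of the pericyte list was above 0 with TNF in collagen (0.21) and in untreated fibrin against collagen (0.15). With TNF in fibrin it was -0.30. Of 9 adipocyte markers, 4 of them in the lowest 33.3% of genes, Pparg fell with TNF in collagen (-0.58 ± 0.10) and Cfd with TNF in fibrin (-0.65 ± 0.13). Lpl (-0.89 ± 0.15), Pparg (-0.44 ± 0.10) and Retn (-0.355 ± 0.10) were lower in untreated fibrin. With TNF in both gels 4 fibroblast, 2 pericyte, 7 macrophage and 2 adipocyte markers were lower in fibrin. None of 5 Schwann cell markers was called in the 5 comparisons of the design. The part of these cell types in the values of the contractile genes was not tested.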

How the data were processed

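The deposited values were taken as log2 because they span 1.44 to 14.07. They cover 27342 probe sets of an Affymetrix whole-transcript array, labelled from 200 ng of total RNA per the labels' protocols. The authors' normalization and summarisation steps are not stated in the sources at hand, and limma is the only tool in the submitters' processing notes. Of the probe sets, 15097 name 1 gene, 323 name several, and 11922 are unnamed here. Column medians were 5.94 to 5.98 in collagen and 5.89 to 5.93 in fibrin. Precision is set by the number of arrays, and the median SE of a member's difference between groups was 0.10.

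A linear model with 1 mean per group was fitted to all 12 arrays and 14324 genes (limma 3.58.1 with eBayes, R 4.3.3, two-sided), with Benjamini-Hochberg adjustment and a threshold of 0.05. The fit was tested on simulated data. For TNF in collagen it recovered 68.8% of log2 changes of 0.5 and 96.7% of changes of 1. For the difference of TNF effects it recovered 27.5% and 80.7%, so differences of that smaller size were mostly missed. The share counted as false was 5.23% and 5.83% for these comparisons. All 31 genes matched a RefSeq gene identifier. Every measured member may be named, and from each other list up to 3 called genes of largest difference per comparison. Members and lists were chosen with earlier results of these data known.

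Deviations of arrays with the same replicate number correlated at 0.133 or above between TNF and control inside each gel, so numbers were taken to pair samples there. Between the gels the lowest correlation was 0.081 without TNF and 0.031 with it, so they were not paired. The main fit carries no block, so the TNF calls from it do not use the pairing inside each gel. With replicate number as a block inside each gel, 11 genes were called for TNF in collagen and 2 for TNF in fibrin.

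Alternatives were quantile normalization, median centring, leaving out the lowest 33.3% of genes, fitting only the compared groups, a prior that is trended and robust, array weights, all probe sets, replicate blocks, and each array left out in turn.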

Additional observations from a re-analysis of the deposited data

Results flagged for a closer look

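For Cald1 (caldesmon) a test of the difference itself found unlike TNF effects in the gels: the effect in fibrin minus that in collagen was 0.50 (log2, SE 0.08, adjusted p = 0.0102). TNF went with a lower level in collagen (-0.37) and not in fibrin (0.14, adjusted p = 0.279). Cald1 was already lower in untreated fibrin than in untreated collagen, and that level forms part of the difference.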

How the results depend on the processing

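Refits were counted only for values, a gene in a given comparison, that were called in the main fit or under some alternative. Values called under no setting were left out, and these counts, reversals included, describe the selected values only. Over the 5 comparisons of the design, 34 such values were refitted 727 times. Of those refits 636 kept direction and side of the threshold, 30 lost a call, 61 gained one and 0 reversed. The 2 comparisons added after seeing the data gave 314, 36, 7 and 0 of 357 refits. The cause of each change was not tested.

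Counts of members called moved by over 1.5 times as follows. For TNF in fibrin (1) the count was 0 with only the compared groups, 2 with the replicate block over all groups and 2 with the replicate block inside each gel. For fibrin against collagen with TNF (1) it was 2 after quantile normalization, 2 after median centring, 3 without the lowest 33.3% of genes, 2 with a trended and robust prior, 2 with array weights and 4 with the replicate block over all groups. For the difference of TNF effects (1) it was 2 without the lowest 33.3% of genes, 3 with a trended and robust prior, 4 with the replicate block over all groups and 2 with the replicate block inside each gel.

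Median centring moved the members' median from -0.18 to -0.11 between the gels without TNF and from -0.10 to -0.06 with TNF. With 1 array left out, the counts ran from 4 to 9 for TNF in collagen, 0 to 2 for TNF in fibrin, 6 to 9 for the gels without TNF, 0 to 2 for the gels with TNF and 1 to 2 for the difference of effects. They ran from 8 to 14 for fibrin TNF against collagen control and stayed at 0 for untreated fibrin against collagen TNF. The members' medians ran from -0.17 to -0.08, -0.17 to -0.05, -0.22 to -0.11, -0.17 to -0.06, 0.02 to 0.09, -0.25 to -0.18 and -0.07 to 0.06 in the same order.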
